A study of Mus musculus with 12 samples.

Results

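The serpins (serine protease inhibitors) of mouse liver were followed across 4 groups of mice that differed in genotype and diet. Members were all genes whose only symbol in the array annotation started with Serpin, each represented by its probe set with the highest mean signal, and 54 of the 22180 genes measured met this rule. Liver RNA came from 12 male C57BL/6 mice, 1 mouse per array, in 4 groups of 3: wild-type (WT) mice on regular chow, Ahnak knockout (KO) mice on regular chow, WT mice on a high-fat diet (HFD, 60% fat), and KO mice on HFD, with 8 weeks on the assigned diet. Ahnak encodes a very large scaffold protein. Neither the age of the mice nor the deleted portion of Ahnak is given in the sources used here, and the diet groups were matched for body weight. Each array came from a separate mouse, so the spread within a group is that between 3 animals.

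Most serpins block a serine protease by offering it a bait loop. The protease cuts the loop, the serpin changes shape, and both remain locked in an inactive complex. Hepatocytes secrete many serpins into plasma, among them the antitrypsins of the Serpina1 genes, the antichymotrypsin relatives of Serpina3, antithrombin (Serpinc1), heparin cofactor II (Serpind1), the plasmin inhibitor (Serpinf2) and the inhibitor of the complement C1 proteases (Serping1). Some members inhibit no protease: Serpina6 encodes corticosteroid-binding globulin and Serpina7 thyroxine-binding globulin, which carry hormones in plasma, and Serpinh1 encodes a collagen chaperone of the endoplasmic reticulum. The clade B serpins act mainly inside cells, several of them against proteases of leukocytes.

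Values are log2 array signals, so a difference of 1 is a doubling of the signal. All 12 arrays carried 41345 probe sets with array medians of 5.58 to 5.70 and a highest value of 14.36. Within a group the arrays correlated across genes, which are not independent replicates, with r between 0.992 and 0.994. The WT livers on HFD stood apart from the other 9, at 30.0 to 32.3 on the principal component that held 32.2% of the variance, against -18.5 to -3.95 elsewhere, and every comparison with that group rests on these 3 mice. The probe set for Ahnak read 6.60 in KO and 6.64 in WT on chow, and 6.54 and 7.02 on HFD. Since the deleted portion is unknown, this probe set does not test the genotype labels. With 3 arrays a group, precision is limited by their number.

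The 54 members comprised 20 genes of clade A, 25 of clade B, 2 each of clades F and I, and 1 each of clades C, D, E, G and H. All 8 hepatocyte markers measured lay above background in the liver samples. Background was taken from 1105 olfactory receptor genes, whose 95th percentile of group means was 5.59 to 5.62. Against this, 23 serpins exceeded background in at least 1 group: 12 of clade A, 5 of clade B (Serpinb1a, Serpinb6a, Serpinb6b, Serpinb8 and Serpinb9), and Serpinc1, Serpind1, Serpinf1, Serpinf2, Serping1 and Serpinh1. The other 31 stayed within the background range in all 4 groups, with single mice between 2.08 and 6.03. They were 8 genes of clade A, 20 of clade B, Serpine3, Serpini1 and Serpini2. Several Serpina3 copies, including Serpina3k, did not meet the rule and were not analysed here.

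**Figure D1:**
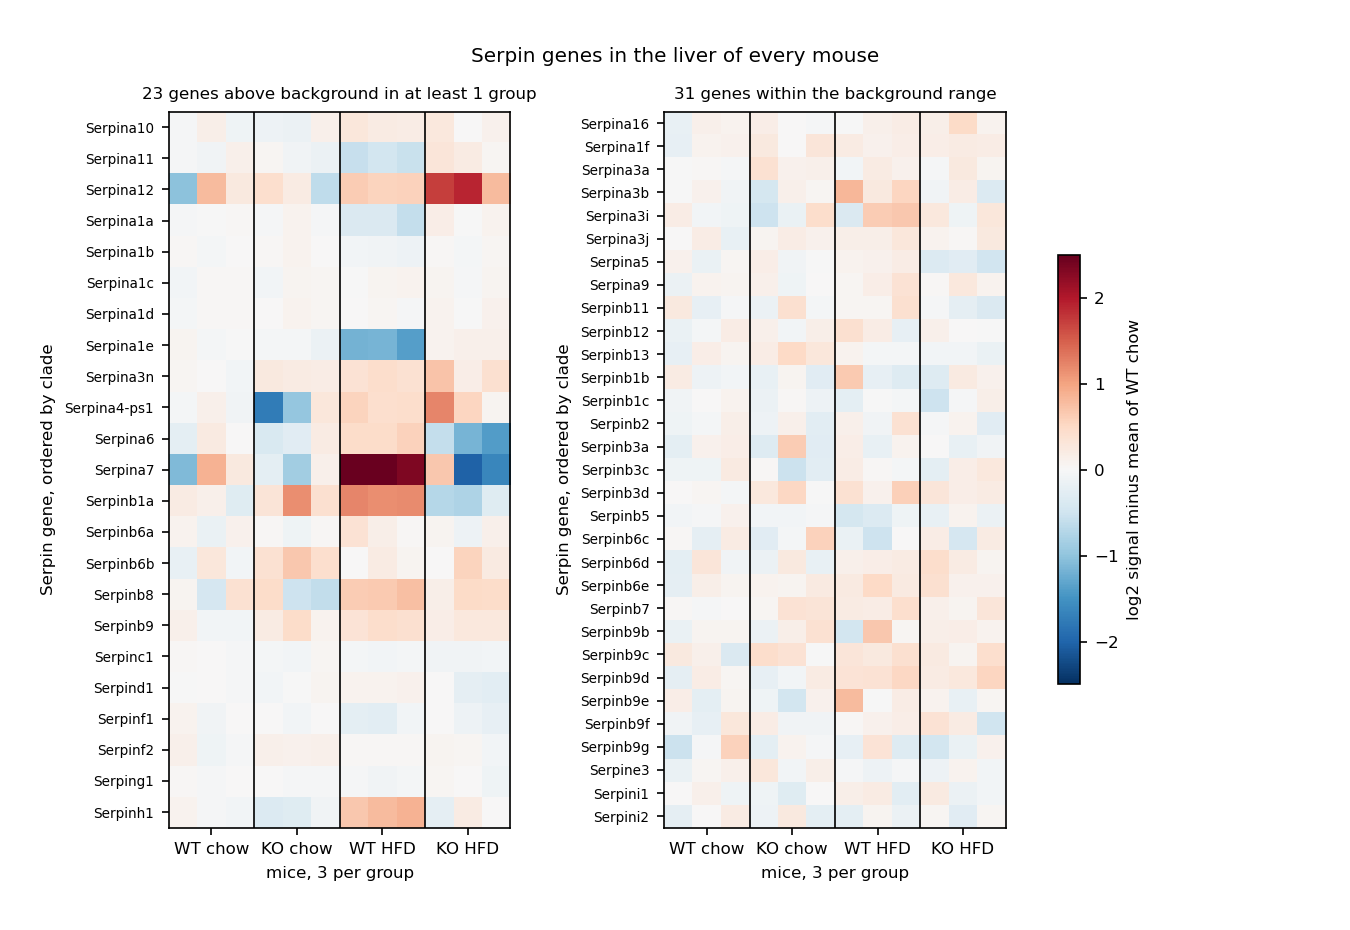
Each row is a serpin gene and each column a mouse (3 per group); colour gives the log2 signal minus the mean of WT mice on chow, with genes above background on the left and genes within the background range on the right. The 3 WT mice on HFD share high Serpina7, Serpinb1a and Serpinh1 and low Serpina1e, Serpina1a and Serpina11, and Serpina3b and Serpina5 are the genes on the right that passed in a comparison.

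The comparisons were KO against WT on each diet, HFD against chow in each genotype, and their interaction, which is the KO minus WT difference on HFD less that on chow. A gene was said to change where its limma p, adjusted by Benjamini-Hochberg over all 22180 genes, was under 0.05. On chow, 0 of the 54 serpins changed between KO and WT, where 0.00902% of all genes did. At an unadjusted limma p under 0.05 there were 6 serpins, and 7.02% of all genes. On HFD, 9 serpins changed (16.7%, background 10.5%): 3 were higher in KO (5.56%, background 3.89%) and 6 lower (11.1%, background 6.62%). HFD against chow changed 7 serpins in WT (13%, background 6.96%), of which 4 were higher (7.41%, background 4.02%) and 3 lower (5.56%, background 2.94%). In KO mice the same diet comparison changed 1 serpin, downwards (1.85%, background 0.243%). The interaction passed for 5 serpins (9.26%, background 3.53%), with 3 higher (5.56%, background 1.43%) and 2 lower (3.7%, background 2.1%). After centring every array on its median, the background on HFD moved from 862 higher and 1469 lower genes in KO to 545 and 1937, that of HFD in WT from 891 and 652 to 1089 and 457, and that of the interaction from 318 and 465 to 221 and 623. The serpins of the interaction split into 2 higher and 3 lower under that centring, under quantile normalization and under array weights. This was a change of genes and not of sign: Serpina1a lost its call in each of these settings. Serpina5, which lay within the background range, gained a call under centring and quantile normalization, and Serpina7 gained one under array weights.

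Over all members, 31 of which lay within the background range, the shifts were small in KO against WT and larger with diet in WT. On HFD the median KO minus WT log2 difference over the 54 members was -0.05, beside 0.001 over all genes, and the median size of the difference was 0.11, beside 0.14. In WT the median diet difference was 0.12, beside 0.003, its median size was 0.17, beside 0.13, and 17 serpins had an unadjusted limma p under 0.05, where 20.6% of all genes did. The median size was 0.09 for KO against WT on chow, beside 0.09 over all genes, 0.11 for the diet in KO, beside 0.10, and 0.16 for the interaction, beside 0.17. Across all 5 comparisons 10 serpins changed in at least 1 and 44 in none. The share of all genes that changed in at least 1 is not given here, so these counts have no background beside them. Clade A held 7 of the 9 changes between KO and WT on HFD (3 higher, 4 lower), clade B held 1 and clade H 1. Among those of clade A, Serpina5 and Serpina3b lay within the background range. KO against WT on HFD and HFD against chow in WT share the 3 WT mice on HFD, so a gene that is high or low in that group shows in both.

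The hormone carriers had their lowest mean signals in KO mice on HFD, although Serpina7 there overlapped both chow groups. Serpina6 read 12.31, 12.77 and 12.56 in WT on chow, 12.17, 12.27 and 12.76 in KO on chow, 13.01, 13.00 and 13.12 in WT mice on HFD, and 11.96, 11.38 and 11.15 in KO mice on HFD. All 3 KO mice on HFD lay below every other mouse, and all 3 WT mice on HFD above every other. On HFD its signal was 2.92-fold lower in KO, a log2 difference of -1.55 ± 0.20 (SE, limma adjusted p = 0.000591). On chow the difference was -0.15 ± 0.20 (adjusted p = 0.912), with a 95% interval from -0.59 to 0.29. The interaction for corticosteroid-binding globulin was -1.40 (adjusted p = 0.0198). Without KO HFD replicate 2 or WT HFD replicate 3 it missed the threshold, at an adjusted p of 0.0531 and 0.0519. The diet difference of Serpina6 was 0.50 in WT (adjusted p = 0.182) and -0.90 in KO (adjusted p = 0.125), and without KO HFD replicate 1 the latter passed at -1.13 (adjusted p = 0.022).

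Serpina7 had the largest difference of any serpin between the HFD groups. Its signal was 7.93, 9.90 and 9.28 in WT on chow, 8.79, 8.18 and 9.17 in KO on chow, 11.51, 11.51 and 11.37 in WT mice on HFD, and 9.72, 7.02 and 7.40 in KO mice on HFD. The WT mice on HFD agreed closely with one another and exceeded all 9 others, whereas the remaining groups were widely spread, with SDs of 1.00, 0.50 and 1.46. In KO on HFD the signal was 10.7-fold lower than in WT, a log2 difference of -3.42 ± 0.62 (SE, limma adjusted p = 0.00401). With 1 array left out this difference ran from -4.25 to -2.91 and stayed called in all 12 cases. On chow the KO minus WT difference was -0.33 and did not pass (adjusted p = 0.94). The diet difference in KO was -0.66 and did not pass either (adjusted p = 0.829), with overlapping groups. HFD raised Serpina7 in WT by 2.42 ± 0.62 (adjusted p = 0.0351). That call was lost without WT HFD replicate 1, 2 or 3 (0.0944, 0.0963 and 0.0873), WT chow replicate 1 (0.123) or WT chow replicate 3 (0.0792), and under robust variance settings (0.087). The interaction of -3.09 did not pass (adjusted p = 0.0794) but did without KO HFD replicate 1 (-3.93, adjusted p = 0.00736), with array weights (0.036) and among genes above the median signal (0.0391).

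Of 18 measured genes that transport, convert or respond to corticosteroids and thyroid hormone, 4 were lower in KO than WT on HFD and 0 higher, with a list median of -0.16. This and the later list counts stand beside all-gene shares of 6.62% lower and 3.89% higher in that comparison, and of 4.02% higher and 2.94% lower in HFD against chow in WT. Thrsp, a lipogenic gene that responds to thyroid hormone, fell by 3.72 on the log2 scale (adjusted p = 7.83e-07). Akr1d1, a reductase that clears steroid hormones and makes bile acids, fell by 1.87 (adjusted p = 0.000492). Tsc22d3, a glucocorticoid-induced gene, fell by 1.17, and Hsd11b1, which regenerates active glucocorticoid, fell by 0.46. In WT on HFD against chow 4 of the 18 were higher: Thrsp by 3.30, Fkbp5 by 0.93, Tsc22d3 by 0.90 and the deiodinase Dio1 by 0.85. Dio1 had means of 10.77 and 11.62 in WT on chow and HFD, and of 10.61 and 11.43 in KO. Tat, also on the list, had means of 13.69 and 13.68 in WT on chow and HFD, and of 13.82 and 13.69 in KO. The albumin and transthyretin genes, whose products also carry thyroid hormone, did not pass on HFD, at -0.05 ± 0.07 for Alb and -0.10 ± 0.07 for Ttr. The glucocorticoid receptor gene Nr3c1 stood at -0.14 ± 0.09 and did not pass either.

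**Figure D2:**
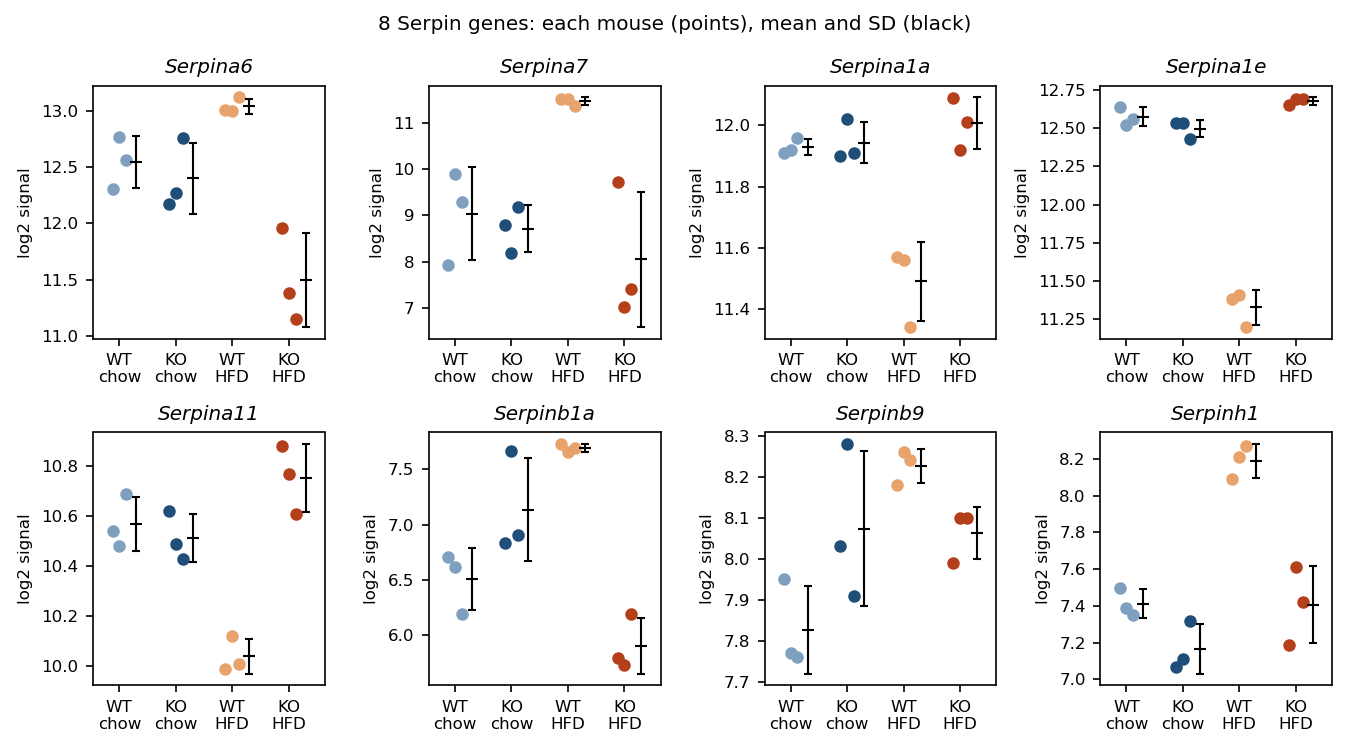
Points are single mice in the 4 groups of 3, the black mark is the mean with its SD, and the vertical axes are log2 signals on a separate scale for each gene. Serpina6 and Serpina7 are highest in WT on HFD, Serpina1a, Serpina1e and Serpina11 are lowest there, and the mean of Serpinb1a is highest in WT on HFD and lowest in KO on HFD.

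The Serpina1 genes are near-identical copies of the alpha-1-antitrypsin family. Which proteases the product of each copy inhibits was not measured here. In the RefSeq order of chromosome 12 they form the run Serpina1b, Serpina1d, Serpina1a, Serpina1c and Serpina1e, followed by Serpina11. Serpina1e read 12.64, 12.52 and 12.56 in WT on chow, 12.53, 12.53 and 12.43 in KO on chow, 11.38, 11.41 and 11.20 in WT mice on HFD, and 12.65, 12.69 and 12.69 in KO mice on HFD. The 3 WT mice on HFD were low, below all 9 others. It was 2.54-fold higher in KO than WT on HFD (1.34 ± 0.08, SE, limma adjusted p = 1.98e-06), and HFD lowered it in WT by 2.36-fold (-1.24, adjusted p = 6.75e-06). The interaction was 1.42 (adjusted p = 6.52e-05), and each of these calls held with any 1 array left out.

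Serpina1a moved in the same direction by less. Its signal was 11.91, 11.92 and 11.96 in WT on chow, 11.90, 12.02 and 11.91 in KO on chow, 11.57, 11.56 and 11.34 in WT mice on HFD, and 12.09, 11.92 and 12.01 in KO mice on HFD. The WT mice on HFD again lay below all others. KO exceeded WT on HFD by 0.51 ± 0.09 (SE, adjusted p = 0.00278), and HFD lowered the gene in WT by 0.44 (adjusted p = 0.0107). The interaction was 0.50 (adjusted p = 0.0465), a call lost in each of the 12 fits with 1 array left out, at adjusted p of 0.0577 to 0.109, and under quantile normalization (0.0838), median centring (0.0706) and array weights (0.0517). The other 3 copies did not pass in any comparison. On HFD the KO minus WT difference was 0.10 for Serpina1b (95% interval -0.06 to 0.25), -0.02 for Serpina1c (-0.18 to 0.15) and 0.05 for Serpina1d (-0.11 to 0.21). Single mice lay between 13.51 and 13.65 for Serpina1c and between 13.33 and 13.48 for Serpina1d, near the upper end of the array scale. Because the copies are so alike, a probe set named for 1 copy may also take up signal from another, and the division between copies is uncertain.

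The promoters of these copies are shown because the measured signals of these near-identical genes differed. The stretches below are RefSeq sequence of GRCm38.p6, minus strand, 5′ to 3′ along the gene, aligned on the letters GTTAAT in capitals, a core of sites for the liver factor HNF1. Relative to the annotated start those letters begin at -21 in Serpina1a, -26 in Serpina1b, -27 in Serpina1c, -16 in Serpina1d and -78 in Serpina1e. They come from chr12:103863625-103863736 for Serpina1a, chr12:103738200-103738311 for Serpina1b, chr12:103904962-103905073 for Serpina1c, chr12:103773634-103773745 for Serpina1d and chr12:103956960-103957071 for Serpina1e.
Serpina1a: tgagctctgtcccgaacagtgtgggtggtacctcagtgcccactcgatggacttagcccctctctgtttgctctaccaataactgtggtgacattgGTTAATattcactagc
Serpina1b: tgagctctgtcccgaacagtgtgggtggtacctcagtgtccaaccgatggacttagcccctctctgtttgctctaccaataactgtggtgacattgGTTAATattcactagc
Serpina1c: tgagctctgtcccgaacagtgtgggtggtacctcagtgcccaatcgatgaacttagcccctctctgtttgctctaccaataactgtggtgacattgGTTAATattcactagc
Serpina1d: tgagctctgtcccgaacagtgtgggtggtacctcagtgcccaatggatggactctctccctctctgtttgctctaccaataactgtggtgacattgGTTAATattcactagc
Serpina1e: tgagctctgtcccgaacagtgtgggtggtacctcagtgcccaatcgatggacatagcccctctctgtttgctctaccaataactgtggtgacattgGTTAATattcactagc
Over these 112 aligned bases, and not over the whole upstream sequence, the copies were identical at 102 positions (91.1%), and pairs shared 93.8% to 98.2%. Serpina1e differed from Serpina1a at 2 bases and from Serpina1c at 2. The part of promoter sequence in the measured differences was not tested.

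Promoter sequences were matched for 47 of the 54 members, and both strands of the 250 bases before each annotated start were searched. GTTAAT was present in 9 of the 47 (19.1%) and in 7.49% of 27025 genes, and these 9 included all 5 Serpina1 copies and Serpina7. The C/EBP letters TTGCNNAA were found in 11 members (23.4%) against 10.8% of genes, among them Serpina1b, Serpina1d, Serpina1e and Serpina7 but neither Serpina1a nor Serpina1c. The STAT letters TTCNNNGAA occurred in 6 members (12.8%) against 8.13% of genes, and TATAAA in 11 (23.4%) against 14.3%. TGTTCT, the core of glucocorticoid receptor sites, occurred in 18 members (38.3%) against 18.2% of genes. These included all 5 Serpina1 copies, whose promoters are near-identical, but not Serpina7, and no promoter was matched for Serpina6. Of the other 3 motifs searched, CCAAT was found in 18 members (38.3%, against 37.5%), the heat shock letters TTCNNGAA in 3 (6.38%, against 8.11%) and the E-box CACGTG in 0 (against 6.86%). Matches of different motifs were counted separately, also where they overlapped. Serpina7 carried GTTAAT and TATAAA, in capitals in the stretch chrX:139085238-139085363, and Serpina11 carried a STAT match, in capitals in the stretch chr12:103989963-103990048, both on the minus strand of GRCm38.p6.
Serpina7: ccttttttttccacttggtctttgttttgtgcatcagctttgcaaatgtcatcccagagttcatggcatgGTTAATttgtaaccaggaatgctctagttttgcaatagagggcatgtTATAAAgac
Serpina11: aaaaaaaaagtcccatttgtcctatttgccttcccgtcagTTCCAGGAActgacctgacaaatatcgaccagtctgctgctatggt
These matches describe letters in a window and are not evidence of binding.

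Serpina11, a liver serpin next to Serpina1e, followed the same course. It read 10.54, 10.48 and 10.69 in WT on chow, 10.62, 10.49 and 10.43 in KO on chow, 9.99, 10.12 and 10.01 in WT mice on HFD, and 10.88, 10.77 and 10.61 in KO mice on HFD. The WT mice on HFD were below all 9 others, while KO on HFD overlapped both chow groups. KO exceeded WT on HFD by 0.71 ± 0.10 (SE, limma adjusted p = 0.000777), HFD lowered it in WT by 0.53 (adjusted p = 0.00686), and the interaction was 0.77 (adjusted p = 0.011). All 3 calls held with any 1 array left out.

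**Figure D3:**
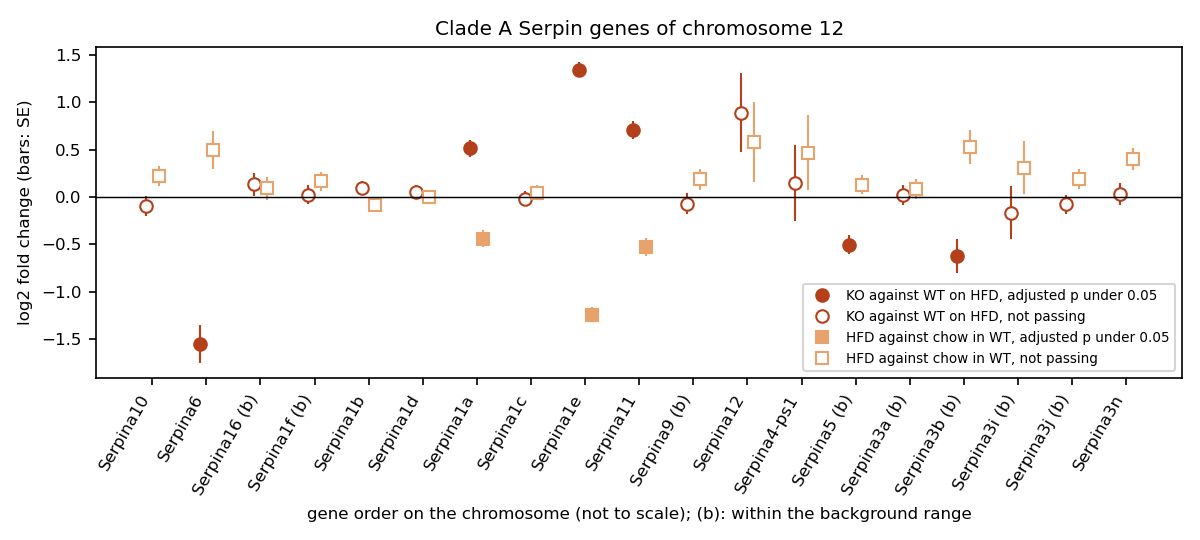
The 19 clade A genes of chromosome 12 are placed in RefSeq gene order (not to scale), with the log2 fold change and its SE on the vertical axis for KO against WT on HFD (circles) and HFD against chow in WT (squares). Filled marks passed; Serpina1a, Serpina1e and Serpina11 lie close together and have opposite signs in the 2 comparisons, which share the WT mice on HFD, while Serpina1c between them did not pass.

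At the other end of that chromosome 12 run, Serpina3n, an acute-phase inhibitor related to antichymotrypsin, did not pass in any comparison. Its signal was 13.18, 13.14 and 13.08 in WT on chow, 13.38, 13.35 and 13.32 in KO on chow, 13.51, 13.58 and 13.52 in WT mice on HFD, and 13.85, 13.31 and 13.55 in KO mice on HFD. The WT mice on chow were the lowest of the 12. The diet difference in WT was 0.40 ± 0.11 (SE, adjusted p = 0.058), and KO against WT on HFD was 0.03 ± 0.11. Among 18 acute-phase genes that are not serpins, 6 were higher in WT on HFD than on chow and 0 lower, Orm3 by 4.08 and Orm2 by 1.82. Between KO and WT on HFD 4 of the 18 were lower, with Orm3 at -3.48 and Orm2 at -1.94, and Saa3 was higher at 1.55.

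Serpina12 encodes vaspin, a serpin known from visceral fat. It read 4.76, 6.59 and 6.04 in WT on chow, 6.21, 5.99 and 5.16 in KO on chow, 6.42, 6.34 and 6.37 in WT mice on HFD, and 7.51, 7.69 and 6.59 in KO mice on HFD. All KO mice on HFD exceeded all WT mice on HFD, but the difference of 0.89 ± 0.42 (SE) did not pass (adjusted p = 0.222), nor did that between the KO groups of 1.48 ± 0.42 (adjusted p = 0.274). Of 5 measured adipocyte markers 0 changed in any comparison, and 2 of the 5 were within the background range. Their summed linear signal ran from 469 to 716 in WT on chow, 494 to 582 in KO on chow, 937 to 1054 in WT on HFD and 970 to 2765 in KO on HFD. Of these markers Fabp4 had group means of 8.58, 8.58, 9.67 and 10.41 in that order, with 11.34 in KO HFD replicate 1. Group means of the others ran from 4.73 to 4.86 for Adipoq, 5.62 to 5.75 for Plin1, 4.71 to 5.09 for Lep and 5.60 to 6.08 for Retn. The part of the summed signal in the Serpina12 values was not tested. Serpina4-ps1, a transcribed pseudogene, varied most among KO mice on chow, at 6.90, 7.69 and 8.93, and passed in no comparison.

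Among clade A genes within the background range, Serpina5 and Serpina3b passed. Serpina5, the protein C inhibitor, read at least 4.90 in each WT mouse on HFD and 4.46, 4.52 and 4.33 in the KO mice on HFD, a log2 difference of -0.50 ± 0.10 (SE, limma adjusted p = 0.00698). Serpina3b read 5.28, 4.69 and 4.99 against 4.36, 4.63 and 4.11, a log2 difference of -0.62 ± 0.18 (SE, adjusted p = 0.0479). The latter call was lost in 8 of the 12 fits with 1 array left out: without KO HFD replicate 1 or 3, KO chow replicate 3, WT HFD replicate 1 or 3, or WT chow replicate 1, 2 or 3, at adjusted p of 0.0591 to 0.172. It was also lost in a fit of only the arrays compared (0.0762) and with array weights (0.0876). At this signal neither gene can be told from background.

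The plasma inhibitors of clotting, fibrinolysis and complement, and Serpinf1 beside them, had group means that lay within 0.27 of each other for each gene. Serpinc1, antithrombin, lay between 13.13 and 13.26 in all 12 mice, and Serping1, which inhibits C1 proteases and kallikrein, between 13.13 and 13.27. Serpinf2, the plasmin inhibitor, ranged from 13.02 to 13.25, Serpina10, which inhibits factor Xa with protein Z, from 10.75 to 11.19, and Serpinf1, an antiangiogenic serpin, from 10.37 to 10.73. None of these 5 passed in any comparison. The KO minus WT difference on HFD was -0.03 for Serpinc1 (95% interval -0.18 to 0.12), 0.03 for Serping1 (-0.12 to 0.19) and -0.01 for Serpinf2 (-0.19 to 0.16). Serpind1, a thrombin inhibitor, read 13.06, 13.07 and 13.09 in WT on HFD and 12.99, 12.75 and 12.72 in KO on HFD, which did not overlap but did not pass (-0.25 ± 0.09, adjusted p = 0.0901). Several of these signals lie near the upper end of the array scale, and whether saturation narrows their differences was not tested.

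Of 16 measured proteases of clotting, fibrinolysis and related steps, 2 were lower in KO than WT on HFD and 0 higher, where 6.62% of all genes were lower. They were Plau (urokinase) at -0.63 ± 0.15 (adjusted p = 0.017) and Tmprss6, which cleaves hemojuvelin, at -0.39. HFD raised Plau in WT by 0.72 (adjusted p = 0.0125), and the other 15 did not pass there. Among 28 protease inhibitors that are not serpins, 2 were higher and 4 lower in KO on HFD, where 3.89% of all genes were higher and 6.62% lower. Itih2 and Itih3, heavy chains of inter-alpha-trypsin inhibitor, were higher by 0.46 and 0.53, whereas Wfdc2 and the metalloprotease inhibitor Timp1 were lower, at -1.56 and -1.29. In WT on HFD against chow all 4 had the opposite sign and passed, with Wfdc2 at 1.57, Timp1 at 1.41, Itih2 at -0.41 and Itih3 at -0.38.

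In clade B the largest differences were those of Serpinb1a, an intracellular inhibitor of neutrophil elastase, proteinase 3 and cathepsin G. Its signal was 6.71, 6.62 and 6.19 in WT on chow, 6.83, 7.67 and 6.91 in KO on chow, 7.73, 7.66 and 7.69 in WT mice on HFD, and 5.79, 5.73 and 6.19 in KO mice on HFD. The KO mice on HFD held the low end, with 1 of them level with the lowest chow mouse at 6.19, and the WT mice on HFD shared the high end with 1 KO mouse on chow at 7.67. On HFD the signal was 3.46-fold lower in KO (-1.79 ± 0.21, SE, limma adjusted p = 0.000283). On chow the KO mice were above all WT mice, but the difference of 0.63 ± 0.21 did not pass (adjusted p = 0.561). HFD raised Serpinb1a in WT by 1.19 (adjusted p = 0.00542) and lowered it in KO by 2.36-fold (-1.24, adjusted p = 0.0338), the only serpin to pass in that comparison. The interaction of -2.42 (adjusted p = 0.00102) held with any 1 array left out.

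The call for Serpinb1a in KO rested on several arrays. It was lost without KO HFD replicate 1 or 2 (0.0915 and 0.146), KO chow replicate 2 or 3 (0.0675 and 0.0652) or WT HFD replicate 1, 2 or 3 (0.0631, 0.0658 and 0.0599), and in a fit of only the arrays compared (0.188). Neutrophils are a known source of Serpinb1a. Of 8 neutrophil markers 7 were within the background range, 0 changed in any comparison, and their summed linear signal ran from 278 to 299 in WT on HFD and from 247 to 288 in KO on HFD. The 11 leukocyte proteases measured, among them Elane, Prtn3, Ctsg and the granzymes, had 0 changes in all 5 comparisons, and 6 of them lay within the background range.

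Serpinb9, the granzyme B inhibitor of lymphocytes and of cells exposed to them, read 7.95, 7.77 and 7.76 in WT on chow, 8.03, 8.28 and 7.91 in KO on chow, 8.18, 8.26 and 8.24 in WT mice on HFD, and 7.99, 8.10 and 8.10 in KO mice on HFD. HFD raised it in WT by 0.40 ± 0.10 (SE, adjusted p = 0.035). This call was lost without WT HFD replicate 1, 2 or 3 (0.072, 0.11 and 0.0997) or WT chow replicate 2 or 3 (0.0941 and 0.119), and in a fit of only the arrays compared (0.0505). KO against WT on HFD was -0.17 and did not pass (adjusted p = 0.364). Of 9 T and NK cell markers 0 passed in WT on HFD against chow.

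In bulk liver RNA a lower signal from fewer cells of a type cannot be told apart from less RNA per cell. Of 14 macrophage markers 5 were higher and 0 lower in WT on HFD against chow, and 4 were lower in KO than WT on HFD. Their summed linear signal was 7611 to 9290 in WT on chow, 7622 to 9697 in KO on chow, 9670 to 11970 in WT on HFD and 7928 to 9910 in KO on HFD. The macrophage gene Mpeg1 stood at 0.99 in the diet comparison and at -0.96 in KO against WT on HFD. The part of these markers in the values of Serpinb1a and Serpinb9 was not tested.

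The remaining clade B genes passed in no comparison. Serpinb8 read 6.63, 6.65 and 6.75 in WT on HFD against 6.05, 5.57 and 6.37 in WT on chow, which did not overlap, but the difference of 0.68 ± 0.25 (SE) did not pass (adjusted p = 0.142). Serpinb6b was above all WT mice in each KO mouse on chow, at 7.54, 7.83 and 7.57 against 6.96, 7.43 and 7.08, and the difference of 0.49 ± 0.15 did not pass (adjusted p = 0.524). Serpinb6a, an inhibitor of cathepsin G and trypsin-like proteases, lay between 6.41 and 6.94 in all mice. Over the 29 serpins that were within the background range and never called, KO minus WT differences on HFD ran from -0.37 (Serpinb11) to 0.21 (Serpinb6c).

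Serpinh1, the collagen chaperone, was high in WT mice on HFD alone. It read 7.50, 7.39 and 7.35 in WT on chow, 7.07, 7.11 and 7.32 in KO on chow, 8.09, 8.21 and 8.27 in WT mice on HFD, and 7.19, 7.61 and 7.42 in KO mice on HFD. The 3 WT mice on HFD exceeded all 9 others. HFD raised it in WT by 0.78 ± 0.11 (SE, limma adjusted p = 0.00186), and KO was 1.72-fold lower than WT on HFD (-0.78 ± 0.11, adjusted p = 0.00109). Both calls held with any 1 array left out. The interaction of -0.53 did not pass (adjusted p = 0.0981), except among genes above the median signal (0.0394).

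Collagen genes, whose products Serpinh1 folds, also passed. Col1a1 was higher by 1.42 in WT on HFD against chow (adjusted p = 0.000108) and lower in KO than WT on HFD, at -1.10 (adjusted p = 0.000379). Of 12 stellate cell and fibroblast markers, a list that holds these collagens, 4 were higher and 0 lower in the first comparison, and 4 were lower and 0 higher in the second. Their summed linear signal was 7351 to 8495 in WT on chow, 8533 to 9551 in KO on chow, 9273 to 11031 in WT on HFD and 8093 to 9275 in KO on HFD, and their part in the Serpinh1 values was not tested. Of 15 genes for proteins that bind or fold with serpins, a list that again holds Col1a1 and Col3a1, 6 were lower and 1 higher in KO on HFD. These included Vldlr, a receptor that takes up serpin-protease complexes, at -1.77 and the chaperone Hspa5 at -1.20.

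**Figure D4:**
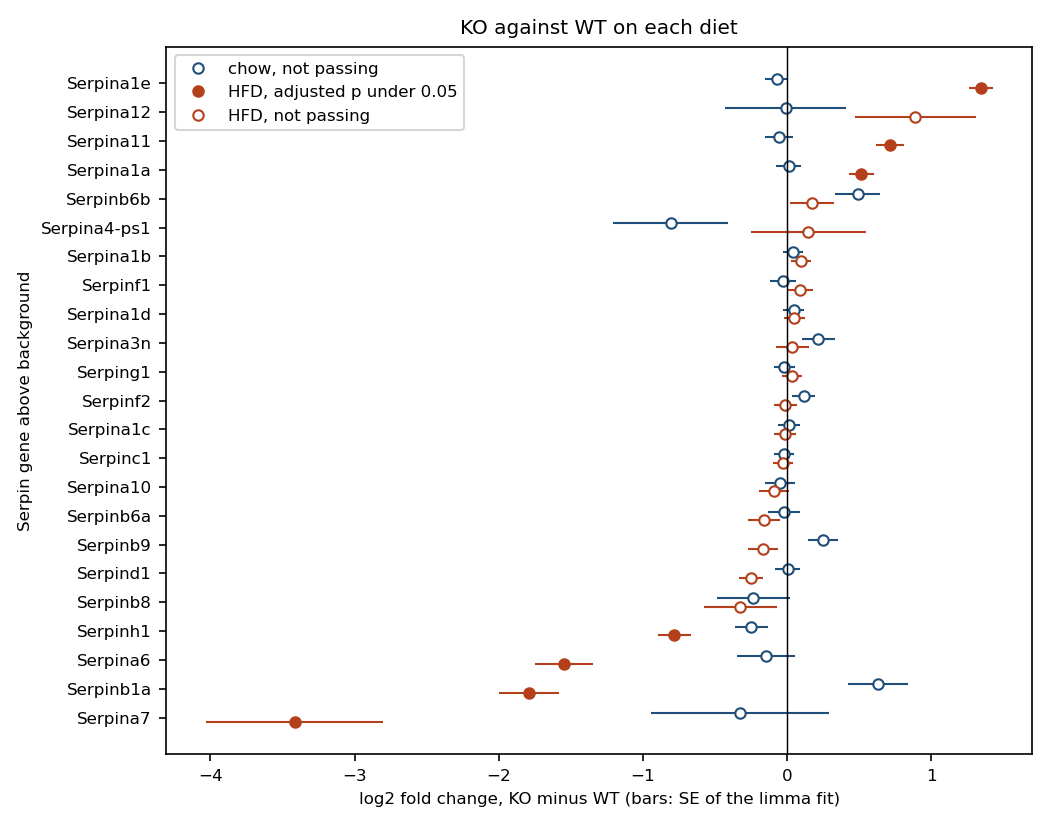
For the 23 serpins above background, the horizontal axis gives the KO minus WT log2 fold change with its SE on chow (blue) and on HFD (red), and filled marks passed the adjusted limma test. On chow no mark is filled; on HFD, Serpina1e, Serpina11 and Serpina1a lie to the right and Serpina7, Serpinb1a, Serpina6 and Serpinh1 to the left.

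Further lists were read beside the serpins. All mice were labelled male. Of 15 genes known as male-biased in mouse liver, 11 were higher and 1 lower in KO than WT on HFD, and 8 were lower and 1 higher in WT on HFD than on chow. Of 13 female-biased genes, 6 were lower and 0 higher in KO on HFD, and in KO against WT on chow 2 were higher and 0 lower, where 2 genes in all passed. Their summed linear signal was 2960 to 3639 in WT on chow, 3608 to 9593 in KO on chow, 12282 to 15043 in WT on HFD and 1434 to 2020 in KO on HFD. Cyp2b9 alone had group means of 7.77, 10.49, 13.29 and 4.85 in that order, and 4 of the 13 lay within the background range. In WT on HFD against chow 4 of the 13 were higher and 1 lower, and Cyp3a44 had means of 5.66 on HFD and 7.11 on chow. Of 15 clock genes 2 were higher and 4 lower in KO on HFD. Among 14 liver transcription factors 2 were higher in KO on HFD, Foxa1 by 0.52 and Foxa3 by 0.36. Of 8 hepatocyte markers Cps1 was higher in KO on HFD, by 0.36, and Alb did not pass in any comparison. The part of these genes in the serpin values was not tested.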

How the data were processed

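Total RNA from 12 livers was labelled with biotin and measured on arrays, per the labels. The deposited values are log2 signals for each probe set, made by the authors with the package oligo, as the submitters' processing notes name it, with the version, summary method and array genome build not given in the sources used here. No scaling or filter was added. Of 41345 probe sets, 23521 carried 1 symbol, of which 23328 matched a RefSeq GRCm38.p6 gene table that served only for names, gene order and promoters, and 17824 others were left out.

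limma 3.58.1 in R 4.3.3 (lmFit, eBayes) fitted the 4 groups together, with 8 residual degrees of freedom. P values were adjusted within each of 5 comparisons. Groups do not overlap where every mouse of one lies above every mouse of the other. Changed serpins, the hormone carriers and the main plasma inhibitors were named, and of gene lists any member as an example. The members and lists were chosen with earlier results of these data known. The code was tested on simulated data. Alternatives were robust variances, quantile normalization, median centring, brighter genes only, all probe sets, only the arrays compared, array weights, a replicate block, other thresholds, members above background (added after seeing the data) and leaving out each array.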

Additional observations from a re-analysis of the deposited data

Results flagged for a closer look

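The KO minus WT difference was unlike on chow and HFD, by the limma test of that contrast itself, for 5 serpins (9.26%, background 3.53%). The KO minus WT log2 difference on HFD less that on chow was -2.42 for Serpinb1a (adjusted p = 0.00102), -1.40 for Serpina6 (0.0198), 0.50 for Serpina1a (0.0465), 0.77 for Serpina11 (0.011) and 1.42 for Serpina1e (6.52e-05). With 1 array left out, the calls of Serpinb1a, Serpina11 and Serpina1e held in all 12 fits and that of Serpina6 in 10, and that of Serpina1a held in 0. The 3 genes with a positive value were low in WT mice on HFD. Serpina6 and Serpinb1a were high in WT mice on HFD and low in KO mice on HFD.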

How the results depend on the processing

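Of the 9 serpins that changed between KO and WT on HFD, 8 stayed called (the exception was Serpina3b) with any 1 array left out. A change of at least 2-fold left 4 serpins in KO against WT on HFD, 3 in HFD against chow in WT and 3 in the interaction, and an adjusted p under 0.1 gave 8 in the interaction. Shares of all genes at these thresholds, and with the replicate block below, are not given here. Those serpin counts therefore have no background beside them. In HFD against chow in KO the count fell to 0 with only the arrays compared and with the replicate block. With 1 array left out it ran from 0 to 1, and that of the interaction from 3 to 5. Without KO HFD replicate 1, and without KO chow replicate 3, the 1 serpin called for diet in KO was not Serpinb1a. A group left with 1 fewer mouse was assumed to vary like the others. Replicate numbers were only shared: deviations of the 18 same-number pairs correlated at -0.0639 to 0.0796, and 1 of 12 arrays correlated best with its own number. The replicate block gave 0, 8, 6, 0 and 4 serpins in the 5 comparisons, against 0, 9, 7, 1 and 5. With it Serpina3b in KO against WT on HFD (adjusted p = 0.0759), Serpina7 (0.0632) and Serpinb9 (0.0551) in HFD against chow in WT, Serpinb1a in HFD against chow in KO (0.0749) and the interaction of Serpina1a (0.0786) were no longer called. Over named genes, 907 values kept direction and side of the threshold, 52 lost and 7 gained a call, and 14 changed sign. None of those 14 was a called difference. Serpina3b in KO on HFD against chow became 0.03 with array weights, and Serpinb9 there became 0.00 with quantile normalization. With 1 array left out, the log2 difference of KO against WT on chow ran from -0.11 to 0.00 for Serpina11, -0.03 to 0.03 for Serpina1a, -0.19 to 0.09 for Serpina3b, -0.05 to 0.08 for Serpina5 and -0.88 to 0.10 for Serpina7, and that of HFD against chow in KO from -0.17 to 0.13 for Serpina3b and from -0.10 to 0.09 for Serpinb9. The causes were not tested.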

Other observations

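A few serpin probe sets belonged to no comparison. A probe set shared by Serpinb10 and Serpinb2 had group means of 4.39 in WT on chow, 4.54 in KO on chow, 4.53 in WT with HFD and 4.38 in KO with HFD, all within the background range. A probe set shared by 1110046J04Rik and Serpinb6a had group means between 4.18 and 4.36. The dimmer probe set of Serpinb9b had group means of 3.94, 3.86, 4.21 and 3.77 in the same order of groups.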
